A study of Mus musculus with 31 samples.

Results

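The change in gene expression that 1x20Gy brought about in tumour immune cells was compared between day 5 and day 13 after irradiation. The comparison used 21 of the 31 bulk RNA-seq libraries of the series, chosen by their labelled dose and day, and it covered all 12061 genes that passed a minimum count, of 38406 gene symbols in the deposited tables. The cells carried CD45.2, a marker of all leukocytes, and were sorted from AT3-OVA tumours grown in the mammary fat pad of wild-type C57BL/6 females. These tumours come from a single mouse mammary carcinoma line of triple negative type that was made to express ovalbumin. At day 5 there were 6 libraries of tumours given 1 fraction of 20 Gy (1x20Gy) and 4 of tumours whose hosts were anaesthetised without radiation (1x0Gy, the mock group). The day 13 groups held 7 libraries (1x20Gy) and 4 libraries (1x0Gy). All 4 groups share the tumour line, the host strain, the anaesthesia and the sort, and the age of the mice was not given in the sources used here. Sample codes differ between the days, so the day and the experiment cannot be told apart. Each irradiated group was therefore set against the mock group of its own day, and the difference of those responses (day 13 minus day 5) was tested, with no level compared across days.

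As background, ionising radiation breaks DNA, which activates p53 and halts or kills dividing cells. Lymphocytes are among the most radiosensitive cells, while tissue macrophages survive higher doses. Irradiated tumours are then refilled by cells from the blood, neutrophils and monocytes early and lymphocytes with them or later, so that the immune cells sampled at a late time are in part not those that were irradiated. An early and a late sample can therefore hold different cells as well as different activity of the same genes. In bulk RNA of this kind, fewer cells of a type and less RNA per cell cannot be told apart.

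Depth and purity bear on every value. Gene counts per library ran from 2641229 to 7541144 in the 21 libraries, and reads outside annotated genes made up 15.9% to 32% of the uniquely placed reads, with group means of 23.5% after 1x20Gy and 16.9% after 1x0Gy at day 5, and of 25.8% and 20.4% at day 13. In pairwise chi-square comparisons of counts within a group, day 5 1x20Gy replicate 2 stood furthest from the others (33.5 to 69.3 per degree of freedom). Of the day 13 mocks, replicate 3 was 53.3 and 54.2 from replicates 1 and 2, which differed by 3.67. Mock replicate 4 was 23.4 and 25.1 from replicates 1 and 2 and 11.8 from replicate 3, so replicate 3 was not a lone library apart from 3 alike. Among the day 13 1x20Gy libraries replicate 5 held the highest value, 32.7 from replicate 4. Without day 13 1x0Gy replicate 3 there were 123 calls at day 13 and 1 for the difference, so day 13 counts rest in part on it. The symbol RP23-81C12.3, whose product is unknown here, took 2.06% to 14% of the gene counts after 1x20Gy and 1.99% to 5.19% after 1x0Gy at day 5, and 19.2% to 31.5% against 2.15% to 15% at day 13. Ptprc, which codes for the sorted marker CD45, was not called on either day, at a log2 fold change of 0.10 (SE 0.26) at day 5 and 0.15 (SE 0.25) at day 13. Levels are given as CPM, which are counts scaled to the TMM-corrected depth of the library, a scale on which genes of different length cannot be compared. A fold change is on the log2 scale, so that 1 stands for a doubling, and a gene was called at an adjusted p below 0.05 in edgeR.

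Of the 12061 genes, 51 (0.423%) were called for the difference of the responses, 25 (0.207%) with the higher response at day 13 and 26 (0.216%) with the lower. The response at day 5 was called for 1258 genes (10.4%), of which 500 (4.15%) were higher after 1x20Gy and 758 (6.28%) lower. The response at day 13 was called for 628 genes (5.21%), 272 (2.26%) higher and 356 (2.95%) lower. These shares are the background for the counts of list members given below, and a count near them is no result about a list. In 45 of the 51 genes the fold change had opposite signs on the 2 days, and 41 were called at day 5 against 11 at day 13. Choosing genes by a large difference favours opposite signs by itself, and over all genes 63.3% had the same sign on both days. Of the 26 lower ones, 18 were genes that rose at day 5 and were not called at day 13. Of the 25 higher ones, 20 were genes that fell at day 5 and were not called at day 13. So the called differences were mostly early responses that were not called at the late time.

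The difference is measured less precisely than each response: its median SE was 0.31, against 0.21 at day 5 and 0.22 at day 13. The p-values of the 51 genes bunch near the threshold, with 48 at an adjusted p of 0.045 or more, and leaving out 1 library moved the count to between 1 (without day 13 1x0Gy replicate 3) and 111 (without day 13 1x20Gy replicate 5). Spry2 was called with each of the 21 libraries left out in turn, Pgf with 20 of them, and the other 49 genes with at most 10. None of the 51 differences changed sign under any alternative that tested the gene. Just outside the threshold stood Zswim8 (difference 1.10, adjusted p = 0.0544), Pkp1 (3.66, 0.0565), Klrg1 (-2.18, 0.0565) and Foxa1 (3.05, 0.0594).

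**Figure D1:**
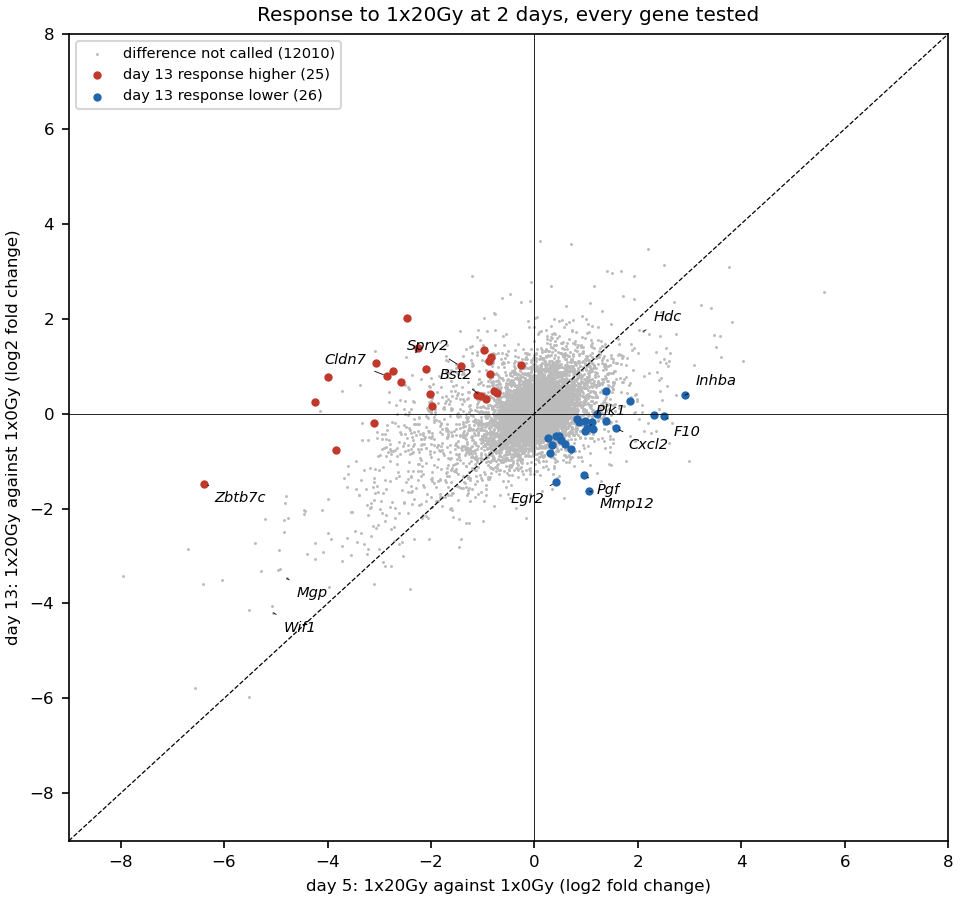
Each point is 1 gene, with the log2 fold change of 1x20Gy against 1x0Gy at day 5 on the horizontal axis and at day 13 on the vertical axis. The 25 genes in red have a higher and the 26 in blue a lower response at day 13 in edgeR, and the dashed line marks equal responses. Most coloured points lie where the signs of the 2 days differ, which the choice by a large difference favours.

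Spry2, Pgf and Exosc8 were the genes called in opposite directions on the 2 days. Spry2 codes for Sprouty2, a feedback inhibitor of receptor tyrosine kinase signalling through Ras and ERK (chromosome 14, 105891947 to 105896819, GRCm38, minus strand). At day 5 the mock libraries held 38.8, 37.9, 40.4 and 35.5 CPM of Spry2, while the 6 irradiated libraries ran from 7.36 over a median of 13.7 to 22.5 CPM. At day 13 the mock libraries held 38.7, 23.2, 30 and 34.5 CPM, and the 7 irradiated libraries ran from 35.5 over 63.8 to 89.8 CPM. At day 5 every irradiated library was below every mock library. At day 13 6 of the 7 irradiated libraries were above all mocks, and replicate 5, at 35.5 CPM, lay within their range. Spry2 thus fell by 1.43 (SE 0.26, adjusted p = 0.00044) at day 5 and was 1.00 higher (SE 0.26, adjusted p = 0.0228) at day 13. The difference of 2.42 (SE 0.37, 95% interval 1.66 to 3.19, adjusted p = 0.0035), a 5.36-fold change in the ratio, had the lowest p of all genes. Without day 13 1x0Gy replicate 3 the difference of Spry2 was 2.40 (adjusted p = 0.0219), and the day 13 response, at 0.97, was no longer called (adjusted p = 0.102).

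Pgf codes for placental growth factor, a ligand of the VEGF family that binds VEGF receptor 1 (chromosome 12, 85166635 to 85177790, minus strand), and it went the other way. Its mock libraries held 6.78, 5.03, 10.5 and 8.3 CPM at day 5, and the irradiated ones ran from 9.73 over 14.4 to 21.8 CPM, with the lowest of them inside the mock range. At day 13 the mock libraries held 12.4, 13.4, 18.2 and 13.8 CPM, and all 7 irradiated libraries lay below them, from 2.62 over 5.55 to 9.16 CPM. Pgf was 0.96 higher (SE 0.27, adjusted p = 0.0193) at day 5 and fell by 1.29 (SE 0.28, adjusted p = 0.00516) at day 13. The difference was -2.25 (SE 0.39, 95% interval -3.04 to -1.46, adjusted p = 0.0111), and it was not called without day 13 1x0Gy replicate 3, at an adjusted p of 0.0718, nor was the day 13 response of Pgf (-1.16, 0.0523).

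Exosc8 codes for a subunit of the RNA exosome, the complex that degrades and trims RNA, and showed the same order at a smaller size. At day 5 its mock libraries held 48.7, 59.4, 55.4 and 47 CPM and the irradiated ones 62.3 to 80, and at day 13 the mock libraries held 63.1, 63, 76.5 and 71.9 CPM and the irradiated ones 37.3 to 58. The groups did not overlap on either day. Exosc8 rose by 0.42 (SE 0.14) at day 5 and fell by 0.46 (SE 0.13) at day 13, a difference of -0.89 (SE 0.19, adjusted p = 0.045). Without day 13 1x0Gy replicate 3 neither the day 13 response of Exosc8 (-0.41, adjusted p = 0.164) nor the difference (-0.83, 0.0789) was called.

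**Figure D2:**
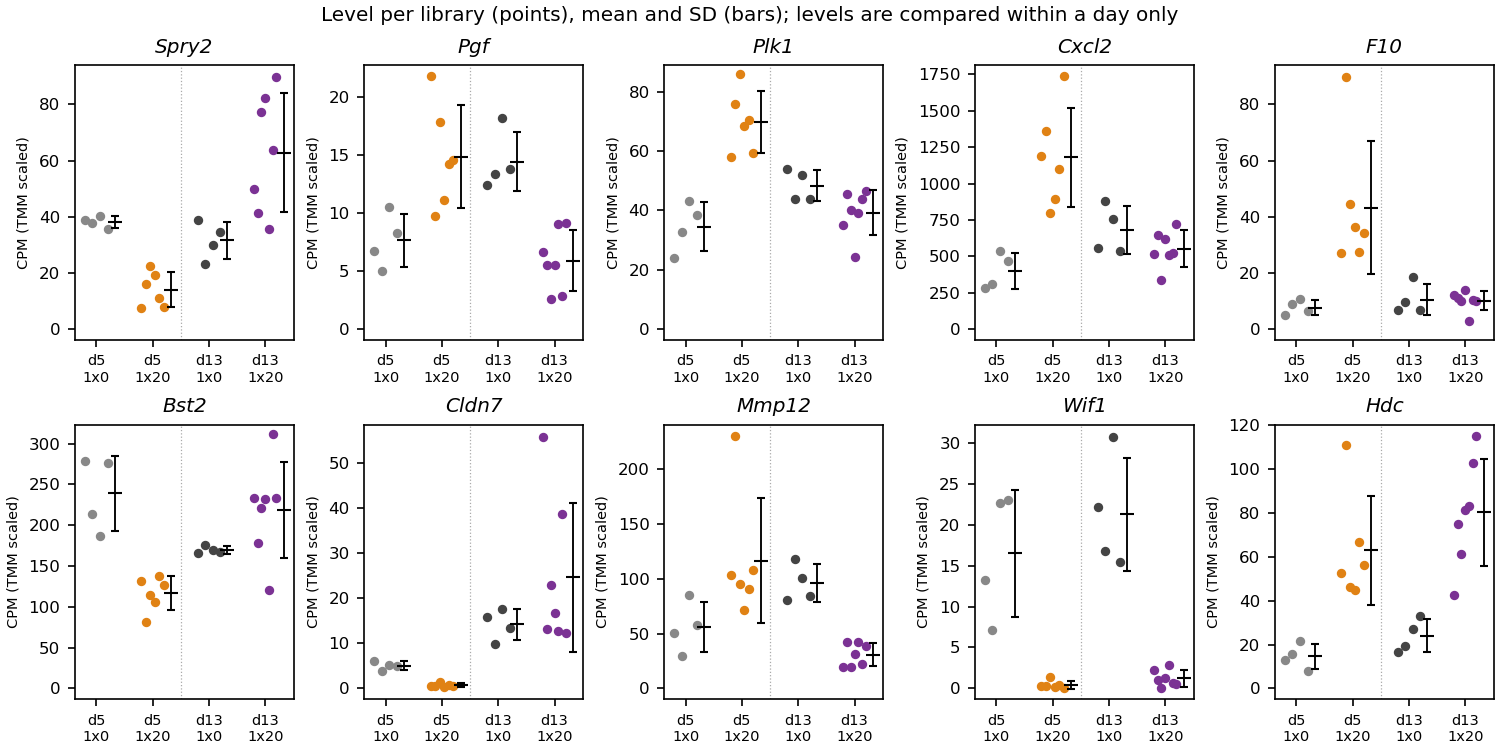
Levels of 10 genes in each library, in CPM after TMM scaling, with day 5 left and day 13 right of the dotted line in each panel. Points are libraries, bars the mean and SD of a group (n = 4, 6, 4 and 7 from left to right), and levels are to be compared within a day only; Spry2 is below its mock group at day 5 and, in 6 of 7 libraries, above it at day 13.

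Genes of the cell division cycle made up the largest group of called differences among the lists: 6 of 36 were lower (Plk1, Ube2c, Ccnb1, Cdc6, Birc5 and Cdca8), against 0.216% of all genes. These genes drive DNA replication (Cdc6 loads the replicative helicase), entry into mitosis (Ccnb1, cyclin B1; Plk1, a mitotic kinase) and chromosome separation (Birc5 and Cdca8 belong to the chromosomal passenger complex, and Ube2c works with the anaphase promoting complex). At day 5, 13 of the 36 were higher after 1x20Gy and 0 lower, with a median log2 fold change of 0.53 where the median of all genes was -0.003. At day 13, 0 of 36 were called, with a median of -0.18 where that of all genes was 0.001. The median difference was -0.80, against 0.01 for all genes. A lower response at day 13 was found for 35 of 36 members, while 51% of all genes had a higher one. An unadjusted p below 0.05 for the difference was found for 22 of the 36, against 1499 of all 12061 genes. The number called for the difference ran from 0 to 10 with 1 library left out (within 1.5 times of 6 in 4 of the 21 fits), while the median stayed between -0.90 and -0.69. Spc24, a kinetochore protein, Kif22, a mitotic motor protein, and Stmn1, a regulator of microtubules, stand in no list here and were also lower, with differences of -1.21, -0.94 and -1.06 (adjusted p = 0.045 each).

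The cell cycle genes are known to share short promoter elements, and 1 stretch upstream of the RefSeq start of 4 of the 6 called members is shown for that reason. The sequences are RefSeq's for GRCm38.p6, and capitals mark the letters CCAAT on either strand (ATTGG where they lie on the other strand), which the factor NF-Y is known to bind. The stretches are chr2:164769796-164769895 on the plus strand for Ube2c, chr4:124936919-124936958 on the minus strand for Cdca8 (inside its GENCODE gene, since 1 transcript there starts further upstream), chr13:100786572-100786671 on the minus strand for Ccnb1 and chr7:122159335-122159434 on the plus strand for Plk1.
Ube2c: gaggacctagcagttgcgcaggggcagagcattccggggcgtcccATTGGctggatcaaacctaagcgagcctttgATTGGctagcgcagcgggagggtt
Cdca8: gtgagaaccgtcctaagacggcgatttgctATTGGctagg
Ccnb1: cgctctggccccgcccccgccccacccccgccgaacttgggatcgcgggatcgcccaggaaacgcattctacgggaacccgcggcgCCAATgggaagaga
Plk1: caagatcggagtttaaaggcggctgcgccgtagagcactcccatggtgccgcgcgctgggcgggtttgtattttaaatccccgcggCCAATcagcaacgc
In windows from 250 bases before to 50 after the start, CCAAT was found in 23 of the 30 cell cycle genes that matched the table (76.7%) and in 41.1% of the 27025 genes in it. The letters TTTGAA, a form of the cell cycle homology region, were found in 14 of the 30 (46.7%) and in 20.2% of all genes, either strand counted. Among the 6 called members 4 held CCAAT and 3 TTTGAA, and Birc5 and Cdc6 held neither of them in this window.

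Plk1 shows the pattern of the group. Its mock libraries held 24, 32.6, 43.3 and 38.3 CPM at day 5, and all 6 irradiated libraries were above them, from 58.1 over a median of 69.4 to 85.8 CPM. At day 13 the mock libraries held 53.9, 43.7, 51.8 and 43.9 CPM and the irradiated ones ran from 24.4 over 40.2 to 46.6 CPM, overlapping the mocks. The log2 fold change was 1.02 (SE 0.18, adjusted p = 0.000326) at day 5 and -0.30 (SE 0.18, adjusted p = 0.347) at day 13, and the difference -1.31 (SE 0.25, 95% interval -1.83 to -0.80, adjusted p = 0.0441). Cdc6 had the widest difference of the list at -1.46 (SE 0.33), from 1.13 at day 5 and -0.33 at day 13. Ccnb1 went from 0.59 to -0.64, with mock libraries of 18.8, 19.5, 25.4 and 27.2 CPM below irradiated ones of 28.7 to 45.5 at day 5, and mock libraries of 12.7, 13.4, 15.8 and 12.9 CPM against irradiated ones of 4.27 to 13.6 at day 13. Mki67, the proliferation marker Ki-67, was not called on either day or for the difference (0.56, -0.41 and -0.97, the last at an adjusted p of 0.26).

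The summed level of the 36 genes ran from 2170 to 3240 CPM after 1x20Gy and from 1680 to 1990 after 1x0Gy at day 5, and from 1330 to 2070 against 1650 to 2010 at day 13, so the groups were apart at day 5 and overlapped at day 13. Without day 5 1x20Gy replicate 2 and day 13 1x20Gy replicate 5, 10 members were higher at day 5 and 5 were called for the difference, and without day 5 1x0Gy replicate 1 or 3 as few as 8 were higher at day 5. The summed level of 18 epithelial and tumour cell markers is given below, and which cells held the cell cycle transcripts was not tested. With the average level of epithelial and fibroblast markers as a covariate, 4 of the 6 genes were still called, and the difference of Plk1 was -1.33. That fit did not remove the late response of the epithelial markers, as given below, so it does not show which cells held these transcripts.

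**Figure D3:**
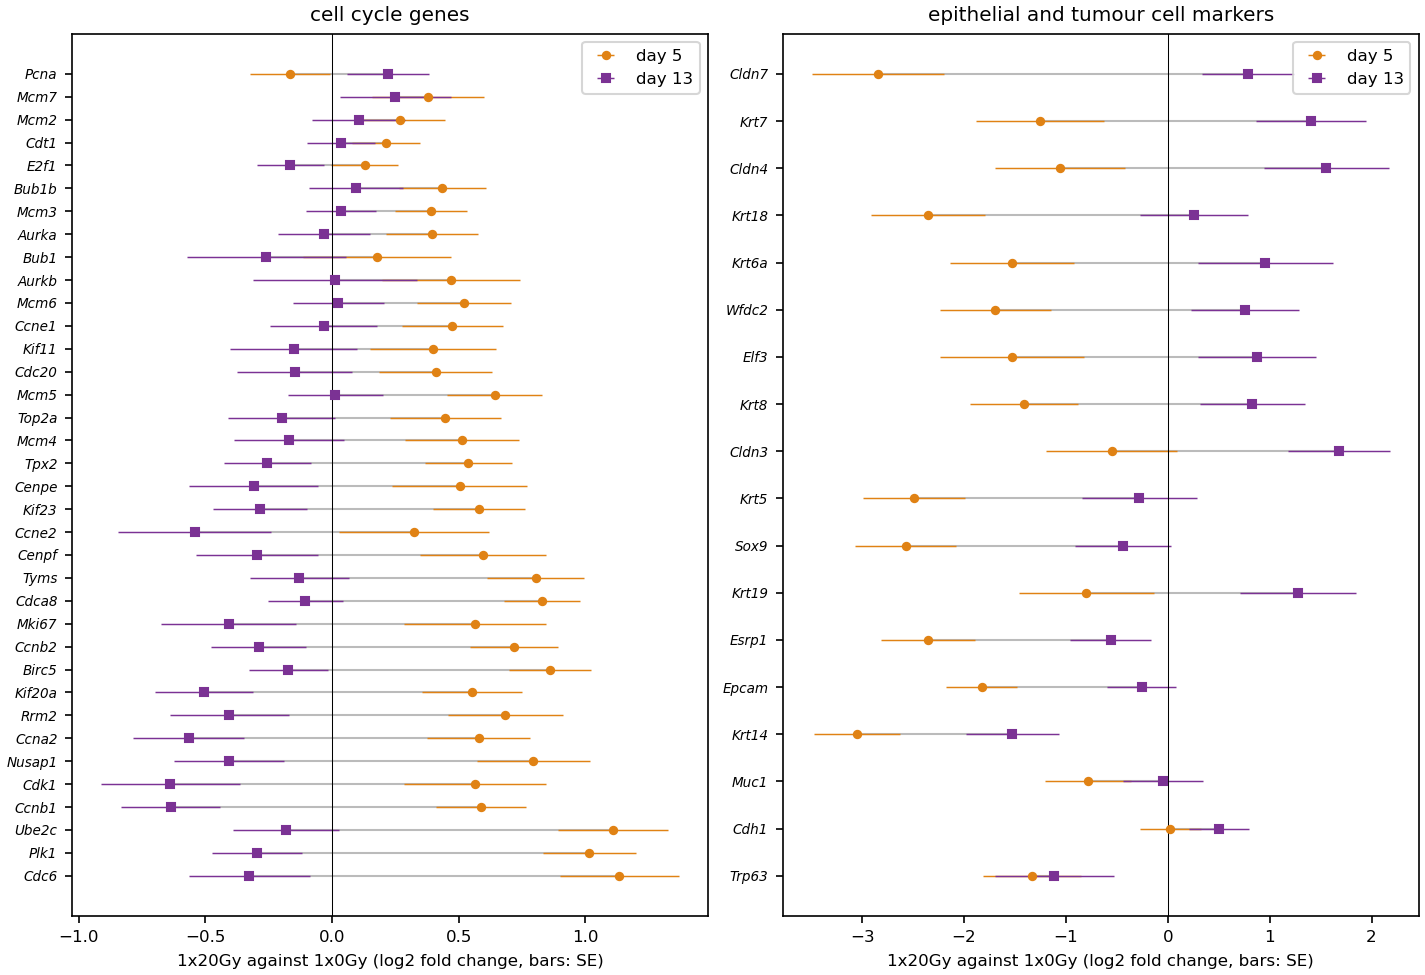
Log2 fold change of 1x20Gy against 1x0Gy for each of 36 cell cycle genes (left) and 18 epithelial and tumour cell markers (right), at day 5 (circles) and day 13 (squares), with bars of 1 SE. The day 13 value lies left of the day 5 value for 35 of the 36 cell cycle genes and right of it for all 18 epithelial markers.

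Cxcl2, Clec4e, Fut7 and Tiam1 rose at day 5 and were not called at day 13. Cxcl2, a chemokine that draws neutrophils, held 281, 307, 538 and 467 CPM in the day 5 mock libraries, and all 6 irradiated libraries were above them, from 800 over 1150 to 1740 CPM. At day 13 the mock libraries held 560, 878, 759 and 535 CPM and the irradiated ones 335 to 722, with overlap. Cxcl2 was thus 1.57 higher (SE 0.33) at day 5 and -0.30 (SE 0.30) at day 13, a difference of -1.87 (SE 0.44, 95% interval -2.77 to -0.98, adjusted p = 0.045). It was the 1 called member of the 17 inflammatory cytokine genes and of the 21 chemokine genes. At day 5 7 of the 17 cytokine genes rose and 0 fell, Il1rn (the IL-1 receptor antagonist, 1.19) and Ptgs2 (cyclooxygenase 2, 1.37) among them, and 1 rose in a fit with epithelial and fibroblast marker levels as a covariate. At day 13 0 rose and 1 fell, Il1a at -1.77, and the differences of Il1rn (-1.13) and Ptgs2 (-1.07) were not called.

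Clec4e codes for Mincle, a receptor that senses dead cells and mycobacterial lipid, and it stood at 28.4, 31.5, 39.8 and 24.4 CPM in the day 5 mocks and at 80.6 to 188 CPM after irradiation. At day 13 the mocks held 10.5, 17.9, 25.3 and 13.8 CPM and the irradiated libraries 10.1 to 30.5. The groups were apart at day 5 and overlapped at day 13, with log2 fold changes of 1.85 (SE 0.27) and 0.27 (SE 0.27) and a difference of -1.59 (SE 0.37, adjusted p = 0.045). Fut7, the fucosyltransferase that makes selectin ligands on leukocytes, went from 1.38 to -0.16 (difference -1.54, SE 0.33). Tiam1, an activator of the GTPase Rac, went from 0.97 to -0.37 (difference -1.34, SE 0.30).

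F10 and Inhba code for secreted proteins that are best known from liver and gonads, coagulation factor X and the activin A subunit, and both had large day 5 responses. F10 stood at 4.9, 8.96, 10.6 and 6.36 CPM in the day 5 mocks and at 27.1 to 89.6 CPM after irradiation (median 35.3), and at 6.66, 9.8, 18.4 and 6.8 CPM in the day 13 mocks and at 2.89 to 14 CPM after irradiation. The 5.64-fold rise at day 5 had no counterpart at day 13, where the log2 fold change was -0.04 (SE 0.39), and the difference was -2.54 (SE 0.53, 95% interval -3.63 to -1.45, adjusted p = 0.045). Inhba stood at 2.13, 4.09, 1.93 and 1.59 CPM in the day 5 mocks, below 10.9 to 30.4 CPM after irradiation, and at 2.85, 4.48, 6 and 3.88 CPM in the day 13 mocks, overlapping 3.83 to 8.12 CPM. Its log2 fold changes were 2.91 (SE 0.39) and 0.39 (SE 0.40), and the difference -2.52 (SE 0.55, adjusted p = 0.045). F7, coagulation factor VII, moved from 1.93 at day 5 to 0.00 at day 13, which was not called as a difference (-1.92, adjusted p = 0.29). The remaining members of their lists gave no other call: F10 was 1 of 12 coagulation genes and Inhba 1 of 19 activin and TGF-beta pathway genes with a called difference.

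Mmp12, Egr2, Ndrg1, Vim and Prkcd formed the smaller pattern, a late fall with no call at day 5. Mmp12, the macrophage elastase, held 80.9, 118, 101 and 84 CPM in the day 13 mocks, and all 7 irradiated libraries lay below, from 19.6 over 31.1 to 42.3 CPM. At day 5 the mocks held 50.4, 29.4, 85 and 58.1 CPM and the irradiated libraries 71.4 to 230, with overlap. The log2 fold changes were 1.06 (SE 0.44, adjusted p = 0.12) and -1.64 (SE 0.42, adjusted p = 0.018), and the difference -2.70 (SE 0.61, 95% interval -3.94 to -1.45, adjusted p = 0.045) was the lowest of all called genes. Egr2, a transcription factor induced in activated macrophages and T cells, went from 0.42 to -1.45 (difference -1.86, SE 0.40), while its relative Egr1 fell on both days, by 0.93 and 1.01. Ndrg1, a gene induced by hypoxia, went from 0.30 to -0.83 (difference -1.13, SE 0.25). Vim (vimentin) and Prkcd (a protein kinase C) had differences of -0.98 and -0.79.

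Bst2 codes for tetherin, which holds budding virus at the cell surface and is induced by type I interferon. It was the called member of the 28 type I interferon response genes and of the 11 plasmacytoid dendritic cell genes. The day 5 mock libraries held 279, 214, 187 and 276 CPM, above all 6 irradiated libraries at 81.4 to 138 (median 121). The day 13 mock libraries held 166, 176, 170 and 167 CPM, within the range of the irradiated ones at 121 to 312 (median 232). Bst2 fell by 1.04 (SE 0.20) at day 5 and was 0.37 (SE 0.20, adjusted p = 0.3) at day 13, with a difference of 1.40 (SE 0.29, 95% interval 0.82 to 1.99, adjusted p = 0.045). Its promoter is shown because its difference lay apart from the median of its list. The stretch is chr8:71537533-71537632 on the minus strand, and capitals mark GAAA followed after any 2 letters by GAAA, the core of the interferon-stimulated response element, and TTCNNNGAA, the letters of STAT elements.
Bst2: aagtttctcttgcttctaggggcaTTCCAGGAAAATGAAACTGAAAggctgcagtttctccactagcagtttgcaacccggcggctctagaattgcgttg
The interferon-stimulated response element core was found in 11 of the 19 type I interferon genes with a window (57.9%) and in 3.99% of all genes, either strand counted, and TTCNNNGAA in 4 of 19 (21.1%) and 9.55%. The list as a whole did not share the difference of Bst2: the response at day 13 was the lower one in 19 of 28, with a median difference of -0.19. At day 5 0 of 28 members rose (4.15% of all genes) and 3 fell (6.28%), Bst2 being 1 of these 3. At day 13 0 were called (5.21% of all genes), and the medians were -0.09 and -0.28. The interferon-induced chemokine genes Cxcl9 and Cxcl10 were not called, with differences of -0.22 (SE 0.34) and -0.36 (SE 0.32). Of the plasmacytoid dendritic cell genes, Ly6d (-1.53, then 0.33) and Tcf4 (-0.62, then -0.40) also fell at day 5. The other 8 of the 11 had a positive fold change at day 5, with 0 called higher. The response at day 13 was the higher one in 10 of 11, with medians of 0.32 at day 5 and 0.76 at day 13 and a median difference of 0.61. Without 1 library the day 5 median ran from -0.06 to 0.63 and the median difference from 0.30 to 0.98, and with epithelial and fibroblast marker levels as a covariate the latter was 0.25. The summed level of the 11 genes was 356 to 568 CPM after 1x20Gy and 567 to 741 after 1x0Gy at day 5, and 553 to 807 against 543 to 577 at day 13. Bst2 is 1 of the 11 and alone held 81.4 to 138 CPM after 1x20Gy against 187 to 279 after 1x0Gy at day 5. The lower sum at day 5 is thus in large part Bst2 itself, while the median of the list there was 0.32.

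Epithelial and tumour cell markers had the most positive median difference of the lists, 2.22 over 18 genes. At day 5 8 of the 18 fell (6.28% of all genes) and 0 rose (4.15%), with a median of -1.52. At day 13 1 rose (Cldn3, 1.68, where 2.26% of all genes rose) and 1 fell (Krt14, -1.53, where 2.95% fell), and the median was 0.63. Both day 13 counts were 0 whichever day 13 mock library was left out. The day 13 median stayed between 0.41 and 0.73 without 1 library. All 18 had the higher response at day 13 (51% of all genes), 15 with an unadjusted p below 0.05 (1499 of all 12061 genes). For the difference 1 was called, Cldn7, a tight junction protein of epithelia. Cldn7 held 6.15, 3.77, 5.15 and 4.94 CPM in the day 5 mocks and 0.221 to 1.45 CPM after irradiation, and 15.9, 9.8, 17.6 and 13.4 CPM in the day 13 mocks and 12.2 to 55.7 CPM after irradiation. It was thus low in every irradiated library at day 5, and at day 13 overlapped the mocks, with 3 irradiated libraries above them. Its log2 fold changes were -2.85 (SE 0.65) and 0.79 (SE 0.45), and its difference 3.63 (SE 0.80, 95% interval 2.01 to 5.26, adjusted p = 0.045). Epcam (-1.83, then -0.26), Krt18 (-2.35, then 0.26) and Krt5 (-2.49, then -0.28) fell at day 5 and were not called at day 13 or for the difference.

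Other genes that epithelia are known to express stood beside Cldn7 among the called differences. Mal2, a protein of apical membrane traffic, went from -2.58 to 0.67 (difference 3.25, SE 0.77), and Emp2, an epithelial membrane protein, from -2.01 to 0.42 (2.43, SE 0.57). Leukocytes sorted by CD45.2 should lack these markers. The summed level of the 18 markers ran from 196 to 675 CPM after 1x20Gy and from 634 to 1020 after 1x0Gy at day 5, and from 1000 to 3100 against 956 to 1380 at day 13. All 18 markers of the list had enough counts to be tested. In the fit with the average level of epithelial and fibroblast markers as covariate, the difference of Cldn7 was 2.02 (adjusted p = 0.172). That of Emp2 was 1.04 (0.202) and that of Mal2 1.69 (0.299), so none of the 3 was called. Cldn7 is itself 1 of the markers averaged in that covariate, so its smaller difference there is in part built in. Spry2 (2.01, adjusted p = 0.0208), Pgf (-2.58, 0.0072) and Bst2 (1.63, 0.0208) remained called in that fit, while Cxcl2 (-1.33, 0.299), Inhba (-2.38, 0.117), F10 (-2.29, 0.118) and Mmp12 (-1.74, 0.297) were not. The fit did not remove the late response of the 18 epithelial markers: 9 were called higher at day 13 (median 0.86), against 1 (0.63) without the covariate. Fibroblast genes, averaged with them, had a day 13 median of -1.38. A call kept or lost in this fit therefore does not show which differences came from epithelial RNA.

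Among the other genes with a higher late response, Ier5l and Cdo1 rose at day 13 with no call at day 5. Ier5l, an immediate early response gene, held 61.8, 40.9, 43.1 and 52 CPM in the day 13 mocks, below all 7 irradiated libraries at 68.1 to 197 (median 96.7). At day 5 its mocks held 40.6, 30.5, 9.66 and 19.4 CPM and overlapped the irradiated libraries at 8.37 to 24.3. Its log2 fold changes were -0.83 and 1.19, and the difference 2.03 (SE 0.43, 95% interval 1.15 to 2.90). Cdo1, cysteine dioxygenase, went from -0.97 to 1.34 (difference 2.31, SE 0.53), and Copg2, a coatomer subunit, from -0.27 to 1.01 (1.28, SE 0.30). Fhl2 (-1.11, then 0.39), Mpst (-0.79, then 0.47), Cdk16 (-0.93, then 0.31) and the pseudogene Rpl19-ps11 (-0.72, then 0.43) fell at day 5 and were not called at day 13. Reads of Rpl19-ps11 can come from the gene it copies, so its value is uncertain. Of the 51 genes, 11 had a mean below 5 CPM, among them Zbtb7c, which was at 0 in all 6 day 5 1x20Gy libraries, so that its fitted difference depends on how zeros are handled.

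**Figure D4:**
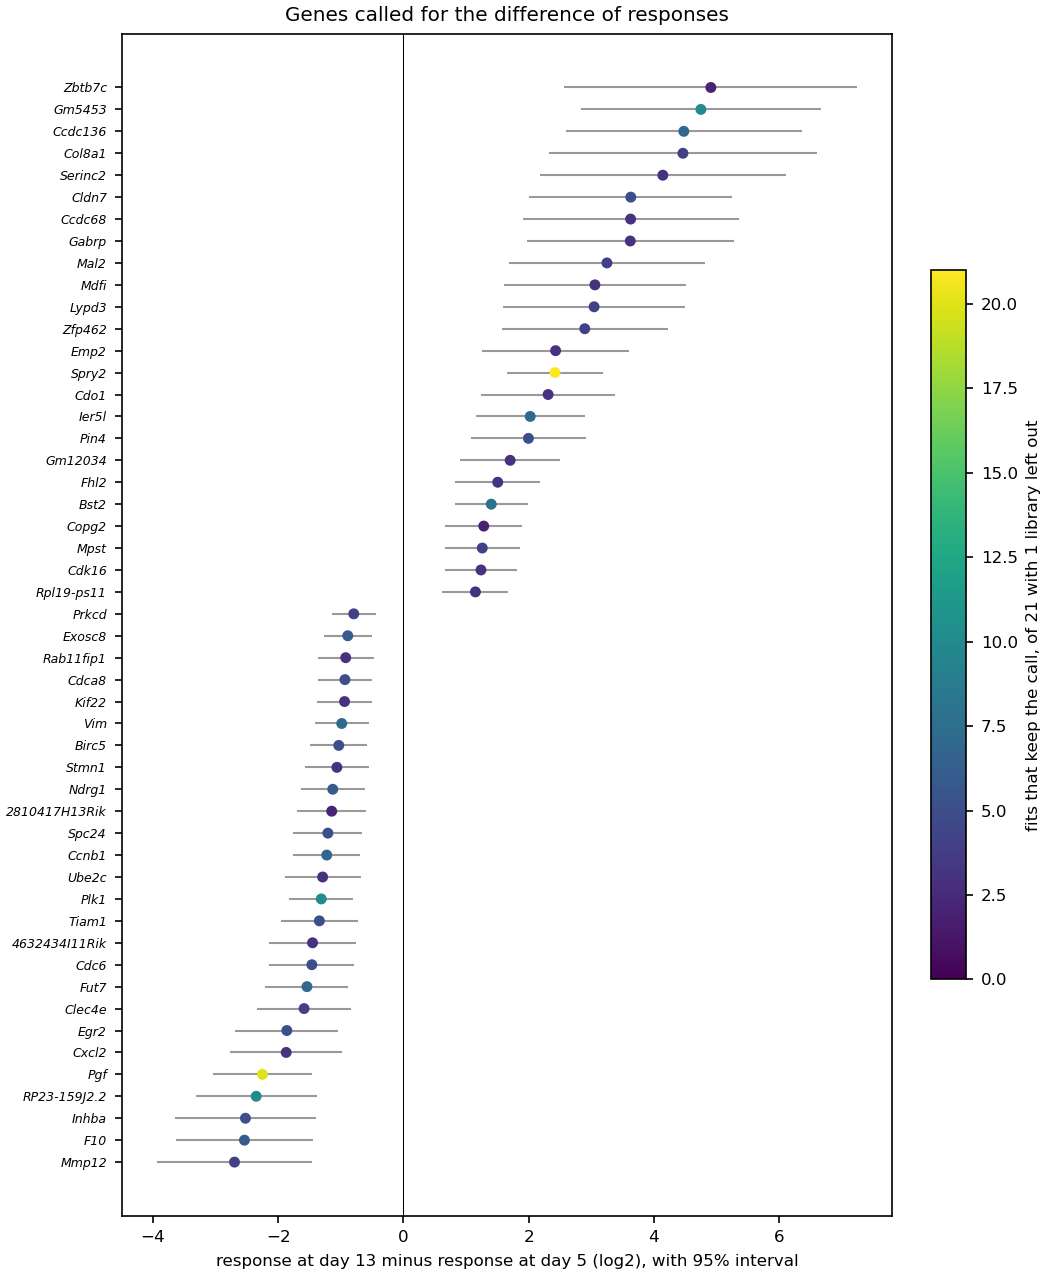
Difference of the log2 fold changes (day 13 minus day 5) with its 95% interval for 50 of the 51 called genes, down to Mmp12 at -2.70; the value drawn for Zbtb7c depends on how its zeros at day 5 are handled. Colour gives the number of fits, of 21 with 1 library left out, in which the gene was called: 21 for Spry2, 20 for Pgf and at most 10 for the rest.

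Regulatory T cell genes rose at day 5 and were not called at day 13. These cells hold back other immune cells, and Foxp3 is the transcription factor that defines them. At day 5 8 of 10 genes were higher after 1x20Gy (4.15% of all genes) and 0 lower (6.28%), with a median of 1.37. At day 13 0 were called (5.21% of all genes), with a median of 0.63. All 10 had the lower response at day 13 (median difference -0.97), 5 at an unadjusted p below 0.05 (1499 of all 12061 genes), and none was called. With 1 library left out, 7 to 10 were higher at day 5 and 0 were called at day 13. Foxp3 held 5.9, 4.56, 1.45 and 2.83 CPM in the day 5 mocks, below all irradiated libraries at 12.5 to 32.1, and 7.61, 6.44, 6.22 and 9.95 CPM in the day 13 mocks, overlapping 5.54 to 18.8. Its log2 fold changes were 2.41 (SE 0.43) and 0.71 (SE 0.41), with a difference of -1.71 (95% interval -2.89 to -0.52, adjusted p = 0.175). Ctla4, an inhibitory receptor, lay above all mocks on both days, at 87 to 336 against 14.3 to 51.7 CPM at day 5 and at 167 to 340 against 91.8 to 151 at day 13, and its difference of -1.49 was not called (adjusted p = 0.165). Il2ra (the IL-2 receptor alpha chain, -0.95) and Il1rl1 (the IL-33 receptor, -1.39) were not called either.

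T cell markers in general did not follow this course. Of 19 markers 6 were higher at day 5 (4.15% of all genes) and 2 at day 13 (2.26%), with medians of 0.83 and 0.82. The median difference was -0.01, with 0 called (0.423% of all genes). The 6 calls at day 5 became 2 at the fewest without 1 library (day 5 1x20Gy replicate 2 or 1x0Gy replicate 3 or 4 moved them most). Cd2, an adhesion molecule of T and NK cells, was above all mocks on both days, at 51 to 132 against 21.9 to 50.2 CPM at day 5 and at 94.5 to 227 against 49.3 to 90.3 at day 13 (1.48 and 1.23, difference -0.25, 95% interval -1.17 to 0.67). The summed T cell markers ran from 530 to 1470 CPM after 1x20Gy against 289 to 884 at day 5, and from 1190 to 2240 against 733 to 1240 at day 13. Klrg1, a receptor of effector T and NK cells and of some regulatory T cells, rose by 2.47 at day 5 and was 0.29 at day 13, and its difference of -2.18 (adjusted p = 0.0565) was not called. Cd8a (difference 0.42, 95% interval -0.64 to 1.47), Ifng (0.03, -1.19 to 1.25) and Gzmb (-0.03, SE 0.48) were not called on either day or between them.

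NK cell markers leaned the other way. At day 5 2 of 13 were higher (4.15% of all genes) and at day 13 7 (2.26%), with medians of 0.37 and 1.26. All 13 had the higher response at day 13 (median difference 0.96), 4 at an unadjusted p below 0.05 (1499 of all 12061 genes), with 0 called. The 2 calls at day 5 became 0 to 4 without 1 library, with medians of 0.11 to 0.60, and 0 without day 5 1x20Gy replicate 2 and day 13 1x20Gy replicate 5. The 7 calls at day 13 became 1 at the fewest when day 13 1x0Gy replicate 2 or 3 was left out, with medians of 1.11 to 1.52 over all fits without 1 library. Ncr1, the activating receptor NKp46, was 0.37 at day 5 and 2.00 higher (SE 0.42) at day 13, with a difference of 1.63 (SE 0.62, adjusted p = 0.24). Eomes, a transcription factor of NK and CD8 T cells, rose by 1.30 and 1.43. Ccl5, a chemokine of cytotoxic lymphocytes, was 0.25 at day 5 and rose by 1.31 at day 13 (difference 1.06, SE 0.39), and Tbx21, which codes for T-bet, was 0.55 and then 1.51 (difference 0.97, SE 0.54), neither called as a difference. The NK markers summed to 272 to 707 CPM after 1x20Gy against 161 to 546 at day 5, and to 688 to 1420 against 354 to 699 at day 13.

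Mast cell, basophil and eosinophil genes had a median of 1.91 at day 5, with 6 of 11 higher (4.15% of all genes). At day 13 their median was 0.59, with 1 higher (2.26% of all genes). All 11 had the lower response at day 13 (median difference -0.92) and none was called. With the marker covariate 1 was higher at day 5, at a median of 1.17. The mast cell proteases Mcpt4 (2.73, then 0.39) and Cma1 (2.42, then 0.48) had the widest differences, -2.33 (adjusted p = 0.12) and -1.94 (adjusted p = 0.23). Hdc, which makes histamine in mast cells, basophils and neutrophils, rose on both days instead. It held 12.8, 15.9, 21.6 and 8.12 CPM in the day 5 mocks against 44.7 to 111 after irradiation, and 16.8, 19.3, 27.1 and 33 CPM in the day 13 mocks against 42.4 to 115, with no overlap on either day (2.11 and 1.73, difference -0.37, 95% interval -1.23 to 0.48). Cpa3, mast cell carboxypeptidase, was 2.11 and 0.80, a difference of -1.31 that was not called. Of 11 neutrophil genes 4 were higher (4.15% of all genes) and 1 lower (6.28%) at day 5, at a median of 2.11. At day 13 3 were higher (2.26% of all genes), at a median of 1.30. Mmp9 (2.69 and 2.34) and Cxcr2 (2.50 and 3.13) were higher on both days. With the marker covariate the medians were 0.54 at day 5, with 2 higher, and 1.18 at day 13, and the median difference turned from -0.35 to 0.57, while the 3 calls at day 13 became 1 at the fewest without day 13 1x0Gy replicate 1, 2 or 3. The neutrophil genes Ly6g and Elane and the eosinophil gene Epx had 0 counts in all 21 libraries. Camp, Ngp and Mpo, also of the neutrophil list, had 13, 16 and 22 counts in these libraries together and were not tested.

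Cdkn1a, the p53 target p21 that halts the cell cycle, stood at 368, 364, 352 and 321 CPM in the day 5 mocks, below all 6 irradiated libraries at 602 to 983 (median 713), and at 170, 286, 154 and 184 CPM in the day 13 mocks, within reach of the irradiated ones at 174 to 278. Its log2 fold changes were 1.09 (SE 0.19) and 0.17 (SE 0.18), and the difference of -0.92 (95% interval -1.44 to -0.40) had an adjusted p of 0.091. Of 25 p53 targets 6 rose (4.15% of all genes) and 1 fell (6.28%) at day 5. At day 13 0 were called (5.21%), and 0 for the difference (0.423%). The median difference was -0.23, and 10 had an unadjusted p below 0.05, against 1499 of all 12061 genes. Mdm2, the ubiquitin ligase that degrades p53, went from 0.57 to -0.06, while Bax, a pore-forming death protein, was 0.29 and then 0.60, not called on either day. Of 20 integrated stress response genes 5 rose (4.15% of all genes) and 1 fell (6.28%) at day 5, and 0 were called at day 13 (5.21%). Chac1, which degrades glutathione, had the largest early value, 3.81 (SE 0.41), and 1.92 (SE 0.63, adjusted p = 0.07) at day 13, and Slc7a11, the cystine transporter, went from 1.32 to -0.07. Neither difference was called (adjusted p = 0.39 and 0.097). Without 1 library the 5 calls at day 5 became 3 to 6, the fewest without 1x0Gy replicate 3 or 4.

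The 2 responses also shared much. They have no library in common, and across the 12061 genes their Pearson correlation was 0.53 and Spearman's rho 0.39, given as a description, since genes are not independent replicates. Of the genes higher at day 5 and of those higher at day 13, 59 were the same (11.8% and 21.7%), and of the lower ones 206 (27.2% and 57.9%). The 500 genes higher at day 5 had a median of 0.87 there and of 0.25 at day 13, where 77.8% kept the sign, and the 758 lower ones had medians of -1.52 and -0.56, with 82.8% of the same sign. Over all genes 63.3% had the same sign on both days. A gene called on 1 day has a fold change chosen to be large on that day, so a smaller median on the other day is no measure of decline.

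Lymphocyte genes were among those that rose on both days with the largest sizes. Eomes, Cd2, the IL-18 receptor gene Il18r1 (1.22 and 1.21, difference -0.01, 95% interval -0.92 to 0.91), Rgs16, a brake on G protein signalling (1.24 and 1.33), and the adenosine receptor gene Adora2a (1.12 and 1.27) belonged to them. Il18r1 held 64.7, 43.7, 32.9 and 76.5 CPM in the day 13 mocks, below all irradiated libraries at 79.4 to 169. Zfp831 (1.36 and 1.41), Atp2a3, a calcium pump (1.19 and 1.16), and Podnl1 (2.50 and 1.14, difference -1.36, not called) rose as well.

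Wif1 and Mgp were among the 10 named genes with the largest fall on both days. Wif1, a secreted Wnt antagonist, held 13.3, 7.08, 22.7 and 23 CPM in the day 5 mocks against 0 to 1.45 after irradiation, and 22.2, 16.8, 30.7 and 15.5 CPM in the day 13 mocks against 0 to 2.89 (-5.05 and -4.20, difference 0.85, 95% interval -0.82 to 2.52). Mgp, matrix Gla protein, held 80.1, 50.8, 153 and 110 CPM against 0.884 to 6.99 at day 5, and 70.4, 66.1, 156 and 83.3 CPM against 1.63 to 33 at day 13 (-4.79 and -3.47). Neither gene overlapped its mocks on either day. Smoc1, Foxc1, Pigr, Pdzrn3, Tbx15, Sertad4 and Postn also fell by more than 2 on both days, from -2.77 (Tbx15) to -4.25 (Smoc1) at day 5 and from -2.41 (Postn) to -3.64 (Sertad4) at day 13, and none of their differences was called. Of 10 fibroblast and matrix genes 3 fell on each day (medians -1.27 and -1.38), while 6.28% of all genes fell at day 5 and 2.95% at day 13. The collagen gene Col1a1 was -1.45 (SE 0.49) and -0.91 (SE 0.55), not called on either day, with a difference of 0.54. Their summed level was 78.1 to 167 CPM after 1x20Gy against 173 to 377 after 1x0Gy at day 5 and 88 to 131 against 182 to 268 at day 13, and its part in these results was not tested beyond the covariate fit above. The imprinted genes Peg3 and H19 fell by 4.43 and 3.84 at day 5 and were -2.06 (called) and -0.81 (not called) at day 13, with differences of 2.38 (adjusted p = 0.116) and 3.03 (0.085).

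Macrophage genes of lipid handling and phagocytosis fell on both days, 5 of 17 at day 5 (6.28% of all genes) and 9 at day 13 (2.95%) with 0 higher, at medians of -0.46 and -0.86. Without day 13 1x0Gy replicate 3 the 9 became 3. Trem2, a lipid receptor of tumour macrophages, held 61.7, 32.7, 103 and 98.2 CPM in the day 5 mocks and 11.7 to 46.4 after irradiation, and 50.4, 49.3, 86.9 and 73.1 CPM in the day 13 mocks, above all irradiated libraries at 19.3 to 45.4. Its log2 fold changes were -1.52 (SE 0.35) and -1.24 (SE 0.35), and its difference 0.28 (95% interval -0.75 to 1.30). Gpnmb (-1.46 and -2.22), Plin2, a lipid droplet protein (-0.73 and -1.08), and the lysosomal protease gene Ctsd (-1.33 and -0.77) were lower on both days. Fabp5, a fatty acid carrier, was 0.35 at day 5 and fell by 1.28 at day 13, a difference of -1.63 that was not called (adjusted p = 0.079). Of 15 hypoxia and glycolysis genes 4 fell at day 5 (6.28% of all genes) and 6 at day 13 (2.95%), Bnip3 (-1.29 and -1.61) and Egln3 (-1.08 and -1.69) among both. Without 1 library these counts fell to 1 at the fewest at day 5 and to 3 at day 13, the latter without 1x0Gy replicate 3. Ndrg1 was the called difference in that list. Of the alternatively activated macrophage genes, 4 of 13 rose at day 5 (4.15% of all genes) and 0 at day 13 (2.26%). The 4 became 2 with the marker covariate, and 2 at the fewest without 1 library. Ccl17, a chemokine that draws T cells, went from 1.44 to -1.07 (difference -2.51, adjusted p = 0.085).

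Most other lists gave no called difference. They include 17 MHC class I and 11 MHC class II genes, 22 interferon gamma response genes, 13 monocyte genes, 12 type 1 and 9 type 2 conventional dendritic cell genes and 13 mitochondrially encoded genes. The median differences of those lists lay between -0.33 (monocyte genes) and 0.05 (type 2 conventional dendritic cell genes, which turned to -0.11 with library size scaling). Ighg2c, an antibody heavy chain, differed by -1.19 and was not called on either day. H2-Aa, an MHC class II chain, differed by -0.47 (95% interval -1.09 to 0.15), the monocyte receptor gene Ccr2 by -0.63 (-1.27 to 0.00), Ly6c2 by -0.35 (-1.20 to 0.50) and Arg1, arginase of suppressive myeloid cells, by -1.78 (-3.94 to 0.38). Intervals of this width leave room for differences of more than 2-fold in each of these 4 genes.

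**Figure D5:**
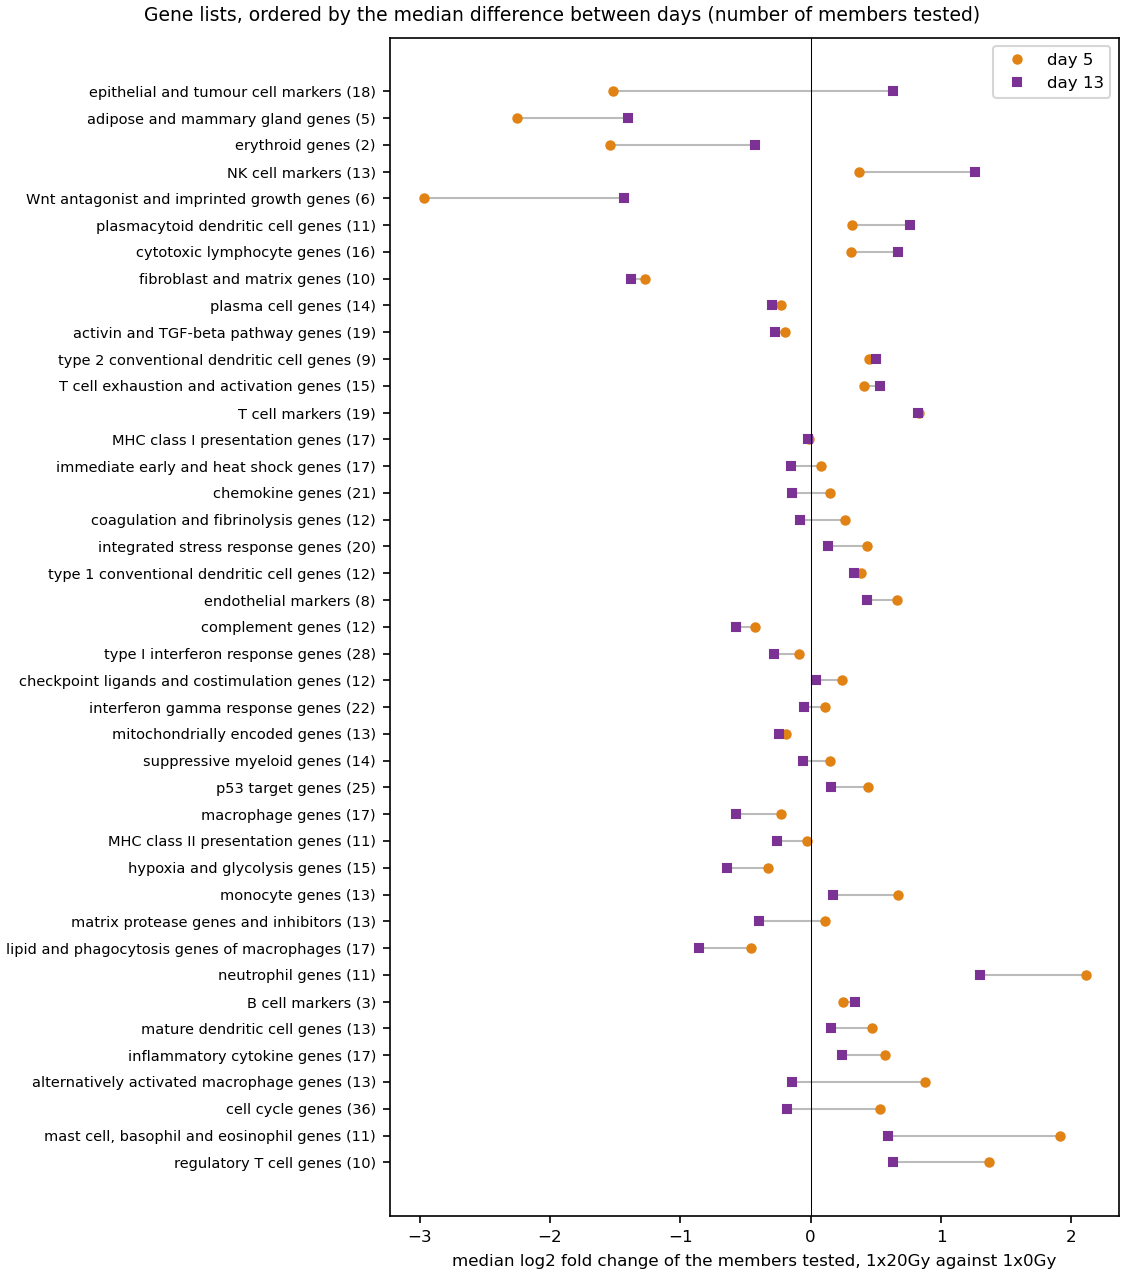
Median log2 fold change of 1x20Gy against 1x0Gy over the tested members of each of 41 gene lists, at day 5 (circles) and day 13 (squares), with the number of members in brackets and no error bar, since members are not replicates. The lists are ordered by their median difference, from the epithelial markers (2.22) to the regulatory T cell genes (-0.97).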

How the data were processed

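Bulk RNA-seq counts of CD45.2+ cells sorted from mouse tumours were used. The authors deposited unscaled read counts for 38406 gene symbols in each library, and the 5 summary lines of a table were left out. Per the submitters' processing notes, bcl2fastq 2.20.0.422, cutadapt 1.5, HISAT2 2.0.4 and HTSeq 0.9.1 were used with GRCm38 and mm10. The gene annotation and strand setting are not given in the sources used here, so reads of overlapping and antisense genes may not be separated.

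Counts of all 31 libraries (6 groups, which share 1 estimate of the spread) were fitted with edgeR 4.0.16 (R 4.3.3), after filterByExpr (minimum count 10, minimum total 15) and TMM scaling, by the two-sided quasi-likelihood test with Benjamini-Hochberg adjustment over 12061 genes. The SE is the absolute log2 fold change divided by the square root of F. Day 13 minus day 5 was a contrast of this fit. It was tried on counts simulated from the kind of model fitted, with known changes in the day 13 1x20Gy group. Those counts held no outlying library and no unlike mocks. The trial therefore does not bear on calls that depend on 1 library. Alternatives used DESeq2 1.42.0, limma 3.58.1 (voom), other scalings, filters, covariates and left-out libraries.

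No label says that replicates came from separate mice, so p-values measure the spread between these samples. Depth was 2641229 to 7541144 counts per library, without molecular identifiers. Gene positions are from GENCODE M21 (GRCm38).

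The comparison, the 41 gene lists and the named genes were chosen with earlier results of these data known. Of 688 list entries 673 were in the tables. Named were, at a mean of at least 5 CPM and with an ordinary symbol, the 15 largest called differences per direction (and the next genes, up to 5), the 10 largest shared responses per direction, genes called in opposite directions, list members and a set of fixed genes. Named after their values were seen were Pkp1, Zbtb7c, Kif22, Stmn1, Vim, Prkcd and some list members that were not called. A few items are not reported here.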

Additional observations from a re-analysis of the deposited data

Results flagged for a closer look

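In 8 of 104 sets of 4 to 7 libraries (26 genes in 4 groups), 1 library stood apart from the rest of its group; chance gives about 5 at 1 in 20. Day 5 1x20Gy replicate 2 was high for Mmp12 (230 CPM), F10 (89.6), Clec4e (188) and Hdc (111). Day 13 1x20Gy replicate 5 was low for F10 (2.89 CPM) and high for Mgp (33). Day 5 1x20Gy replicate 3 was high for Ccnb1 (45.5 CPM) and Wif1 (1.45). The part of these libraries in the results is given by the fits without them.

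The responses of 30 named genes differed between the days by edgeR's test of the difference itself, given here as day 13 minus day 5 on the log2 scale. Lower at day 13 were Mmp12 (-2.70), F10 (-2.54), Inhba (-2.52), Pgf (-2.25), Cxcl2 (-1.87), Egr2 (-1.86), Clec4e (-1.59), Fut7 (-1.54), Cdc6 (-1.46), Tiam1 (-1.34), Plk1 (-1.31), Ube2c (-1.29), Ccnb1 (-1.22), Spc24 (-1.21), Ndrg1 (-1.13), Birc5 (-1.03), Cdca8 (-0.93) and Exosc8 (-0.89). Higher at day 13 were Rpl19-ps11 (1.15), Cdk16 (1.24), Mpst (1.26), Copg2 (1.28), Bst2 (1.40), Fhl2 (1.51), Ier5l (2.03), Cdo1 (2.31), Spry2 (2.42), Emp2 (2.43), Mal2 (3.25) and Cldn7 (3.63).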

How the results depend on the processing

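The sign of the 51 called differences held under every alternative that tested the gene, but their number did not. It was 1 at an adjusted p below 0.01, 5 with upper quartile scaling, 51 with DESeq2's size factors in edgeR, 42 with library size scaling (8 higher, 34 lower), 228 in DESeq2, 3 in limma voom, 85 with no filter, 30 at a mean of at least 5 CPM, 235 with the 21 libraries alone, 65 with the share of reads outside genes and 19 with the epithelial and fibroblast lists as covariate. Chosen after seeing the data, leaving out day 5 1x20Gy replicate 2 and day 13 1x20Gy replicate 5 together gave 37, and leaving out RP23-81C12.3, a symbol with up to 31.5% of a library's gene counts, with library size scaling gave 15. Leaving out 1 library gave 1 to 111, and over 1.5 times more or fewer in 18 of 21 fits: at day 5 without 1x20Gy replicate 2 (2), 4 (3), 5 (3) or 6 (20) or 1x0Gy replicate 1 (3), 2 (4), 3 (5) or 4 (3), and at day 13 without 1x20Gy replicate 1 (2), 3 (12), 4 (11), 5 (111), 6 (2) or 7 (16) or 1x0Gy replicate 1 (2), 2 (4), 3 (1) or 4 (2). The 1258 calls at day 5 became 622 at an adjusted p below 0.01, 367 with the marker covariate and 736 to 1316 without 1 library (759 and 736 without 1x0Gy replicates 3 and 4). The 628 calls at day 13 became 191 at an adjusted p below 0.01, 1600 with library size scaling (109 higher, 1491 lower), 986 with the 21 libraries alone, 952 with each day fitted alone and 123 to 790 without 1 library (395, 386, 382 and 123 without 1x20Gy replicates 4 and 6 and 1x0Gy replicates 2 and 3). The cause was not tested. Library size scaling moved the median of all genes by -0.11 at day 5, -0.23 at day 13 and -0.11 for the difference. Nothing in the labels says that a replicate number pairs libraries, and same-numbered libraries did not all deviate together: 5 of 8 numbers correlated best with their own (day 5: 0.01, 0.22, 0.11 and -0.27; day 13: -0.02, 0.27, 0.11 and 0.17), a hint from the data and not from the design. With a replicate block the calls were 8 for the difference and 235 at day 13.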

Other observations

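Relatives of Spry2 and Pgf were looked up after their values were seen, and none was called for the difference. Among genes that restrain ERK signalling, Dusp6, a phosphatase of ERK, fell on both days, by 1.46 (SE 0.21) and 0.85 (SE 0.21), with a difference of 0.62 (SE 0.30). Spry1 was -0.63 (SE 0.48) at day 5 and 0.14 (SE 0.45) at day 13. Spred1 and Spred2 differed by -0.12 and -0.25. Dusp4 rose by 1.51 (SE 0.46) at day 5 and was 0.86 (SE 0.47) at day 13, and Dusp5 was 0.26 (SE 0.17) at day 5 and rose by 0.64 (SE 0.17) at day 13.

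In the VEGF family, Vegfa was called on neither day (-0.18 and -0.30, difference -0.12, SE 0.27), and Vegfb fell on both, by 1.03 and 0.73. Flt1, which codes for VEGF receptor 1, the receptor of placental growth factor, was 0.89 (SE 0.41) at day 5 and -0.91 (SE 0.42) at day 13. Its difference of -1.79 (SE 0.59) had an unadjusted p of 0.0046 and an adjusted p of 0.151 in edgeR. Kdr rose by 0.65 (SE 0.19) at day 5 and was 0.34 (SE 0.19) at day 13.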
